A study of Sus scrofa with 2 samples.

Results

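The 63 genes described here encode subunits of the respiratory chain and of ATP synthase that are made from nuclear genes, and they were followed in single-nucleus RNA sequencing of pig heart. They are all genes of the matrices whose symbol starts with NDUFA, NDUFB, NDUFC, NDUFS, NDUFV, UQCR, COX4I, COX5, COX6, COX7, COX8 or ATP5, together with CYC1, and without the NDUFAF assembly factors. These were 63 of 31908 genes measured, of which 31 belong to complex I, 6 to complex III, 14 to complex IV and 12 to complex V. NDUFA4 was counted in complex IV, where its protein is now placed, while its relative NDUFA4L2 was left in complex I as its symbol says. Members were taken by symbol. Several have near-identical copies elsewhere in mammalian genomes, and how reads matching more than 1 place were treated is not given in the sources used here, so single-gene levels carry that uncertainty. Some subunits, such as COX6B1, COX6C and UQCRB, carry no symbol of their own in the matrices and are not analysed here.

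The tissue was the free wall of the left ventricle, frozen, from Bama pigs, a miniature breed, after 12 months of a diet rich in fat and sucrose. Of the 2 libraries, 1 is wild type (WT) and 1 carries 3 transgenes, PNPLA3I148M, GIPRdn and hIAPP (TG). Both groups had the diet, so nothing here separates the diet from the absence of a diet, and the labels used here do not name the promoters of the transgenes or the number of animals behind a library. With 1 library per genotype there is no replicate, and genotype, animal and library cannot be told apart.

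The respiratory chain sits in the inner mitochondrial membrane. Complex I takes electrons from NADH, complex III passes them on to cytochrome c, and complex IV hands them to oxygen. All of these move protons across the membrane, and complex V (ATP synthase) lets the protons return and makes ATP. Heart muscle beats without pause and is among the tissues richest in mitochondria. Part of each of complexes I, III, IV and V is encoded by mitochondrial DNA, so both genomes supply each machine.

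Libraries held 127126477 (WT) and 89324966 (TG) unique molecular identifiers (UMIs, 1 per captured RNA molecule), and 16725 and 14939 nuclei were kept, with medians of 5442 and 3937 UMIs. The libraries shared 81 cell barcodes. Nuclei were clustered without the 63 genes, and clusters were called after their marker genes. The 9 classes used are cardiomyocyte-like (6915 nuclei in WT, 5397 in TG), fibroblast-like (2817, 1989), vascular endothelial-like (1174, 2494), lymphatic endothelial-like (964, 597), macrophage-like (1588, 618), T or NK lymphocyte-like (568, 379), pericyte-like (356, 381), smooth muscle-like (267, 167), and those resembling Schwann or neural cells (167, 131). Cardiomyocyte-like nuclei of the libraries lay mostly apart, WT in cluster 0 (4681 nuclei) and TG in clusters 1 (3606) and 10 (994), while cluster 2 held 2169 from WT and 739 from TG. Fibroblast-like nuclei likewise lay in cluster 3 in WT (2784) and cluster 6 in TG (1948). Clusters with markers of unrelated classes, 8.36% of WT and 15.8% of TG nuclei, were set aside.

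Levels are counts per 1000000 nuclear-encoded UMIs (CPM) summed over the nuclei of a class. Intervals are at 95% and cover counting error only, not differences between animals or preparations. UMIs are not scaled to gene length, so the order of genes by CPM is an order of captured molecules and not of transcript abundance.

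In cardiomyocyte-like nuclei the genes of all 4 complexes lay close together in the 2 libraries. Together the 63 genes gave 0.528% of nuclear-encoded UMIs in WT (5281 CPM) and 0.514% in TG (5144 CPM), a ratio of 0.974 (0.969 to 0.979). Complex I was at 1956 CPM in WT and 1884 in TG (ratio 0.963, 0.955 to 0.971), and complex V at 1154 and 1087 CPM (0.942, 0.932 to 0.953). Complex III showed the lowest ratio of the complexes, 667 CPM in WT and 569 in TG (0.854, 0.841 to 0.866). Complex IV, at 1504 and 1604 CPM, was the only one above 1 (1.07, 1.06 to 1.08), and it was at 0.997 when libraries were scaled with edgeR's TMM factors. The directions of complexes I and V depend on the scaling too: 1 gene without a symbol took 6.36% of cardiomyocyte UMIs in WT and 13.9% in TG, and with this gene left out of the total complex I was at 1.05 and complex V at 1.03. Complex III was at 0.928 with that total and at 0.798 with TMM factors. Leaving the gene out moved the median log2 ratio of all genes up by 0.12, to 0.20, and that of the 63 genes to 0.04. TMM factors put the medians at -0.02 and -0.17.

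A gene was counted as higher or lower in TG where its ratio was at least 1.5 in either direction, its interval left out 1, and it had at least 20 UMIs over both libraries. By this rule 1 of the 62 measured genes was higher (against 25.2% of all genes tested in these nuclei), 3 were lower (against 8.79% of all genes) and 58 were neither. The median log2 ratio was -0.08 over these genes and 0.08 over all genes tested. NDUFS8, an iron-sulfur subunit of complex I, had 4 UMIs in WT and 3 in TG and was not measured.

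**Figure D1:**
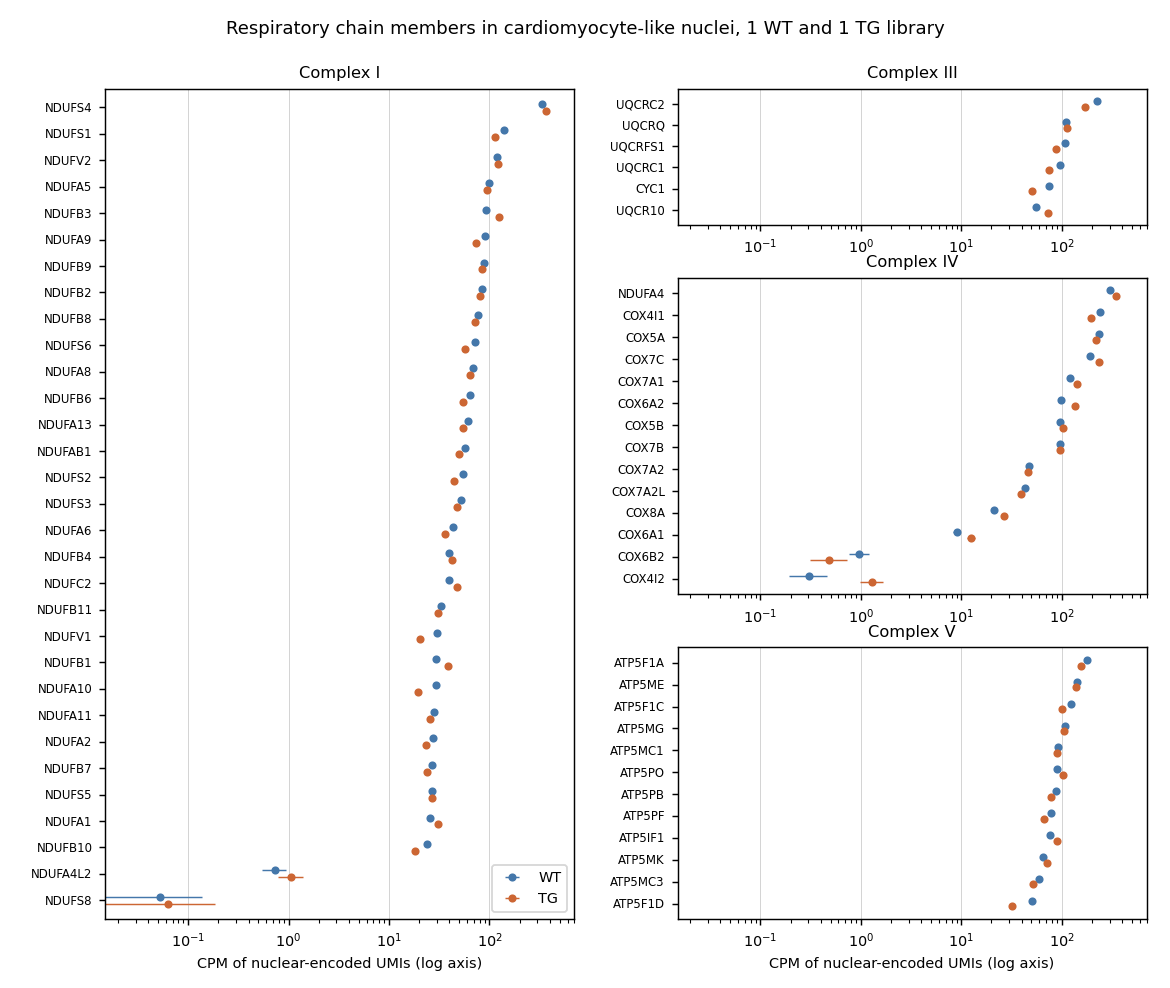
Level of each gene in cardiomyocyte-like nuclei of the WT library (blue) and the TG library (orange), in CPM of nuclear-encoded UMIs on a log axis, by complex; bars are 95% counting intervals. Nearly all pairs of points lie close together, and the widest gaps are those of COX4I2 and COX6B2, both near 1 CPM, followed by ATP5F1D and NDUFA10.

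Among the genes of complex I, NDUFS4 had the most UMIs, at 334 CPM in WT and 364 in TG (1.09, 1.07 to 1.11). It encodes a small subunit needed to complete the matrix arm, and its gene spans 111221 bases (chromosome 16, 32874418 to 32985638, RefSeq on Sscrofa11.1). NDUFS1, the largest iron-sulfur subunit, was at 138 and 114 CPM (0.826, 0.799 to 0.853), and NDUFV2, which belongs to the part that oxidises NADH, at 120 and 121 CPM (1.01, 0.974 to 1.04). None of these 3 came near a ratio of 1.5. A single gene of the complex passed the rule, NDUFA10, an accessory subunit of the membrane arm (chromosome 15, 138999174 to 139031892), at 29.5 CPM in WT and 19.6 in TG (0.664, 0.614 to 0.717). NDUFV1, which binds the flavin that accepts electrons from NADH, lay just outside at 30.2 and 20.2 CPM (0.670, 0.620 to 0.723). The other measured accessory and core subunits ran from NDUFB10 (23.8 and 18.1 CPM, 0.759) to NDUFB3 (93.0 and 124 CPM, 1.33), and NDUFA4L2, on 55 and 50 UMIs, was at 1.45 (0.969 to 2.17). Of the 30 measured genes of complex I, 9 had a log2 ratio above 0 and 21 below, with a median of -0.11.

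In complex III 4 of the 6 genes had ratios below 1. UQCRC2, a core subunit on the matrix side, was at 223 CPM in WT and 171 in TG (0.764, 0.744 to 0.785). The Rieske iron-sulfur protein UQCRFS1 was at 107 and 87.2 CPM (0.817, 0.786 to 0.848), UQCRC1 at 96.0 and 74.1 (0.772, 0.742 to 0.804) and cytochrome c1, CYC1, at 74.2 and 50.4 (0.680, 0.647 to 0.713). The small subunits stood on the other side, UQCRQ at 111 and 114 CPM (1.03, 0.993 to 1.06) and UQCR10 at 55.8 and 72.9 (1.31, 1.25 to 1.37). None reached a ratio of 1.5 in either direction.

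In complex IV, NDUFA4, a small subunit once assigned to complex I, was at 304 CPM in WT and 348 in TG (1.14, 1.12 to 1.17), COX4I1, the widely used form of subunit 4, at 241 and 197 CPM (0.818, 0.798 to 0.839), and COX5A, on the matrix face, at 233 and 221 CPM (0.949, 0.926 to 0.973). The small subunit COX7C was at 193 and 233 CPM (1.21, 1.18 to 1.24). The genes of the complex with the most UMIs thus lay on both sides of 1. The muscle isoforms COX6A2 (97.4 and 137 CPM, 1.41, 1.36 to 1.46) and COX7A1 (122 and 142 CPM, 1.17, 1.13 to 1.202) were above 1 without passing the rule, as was COX6A1 (8.99 and 12.5 CPM, 1.39, 1.24 to 1.56). The others ran from COX7A2L (43.2 and 39.3 CPM, 0.909) to COX8A (21.4 and 26.7 CPM, 1.25), with COX7A2, COX7B and COX5B between them.

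Both genes of complex IV that passed the rule were captured rarely. COX4I2, the alternative form of subunit 4, had 23 UMIs in WT (0.306 CPM) and 61 in TG (1.29 CPM), a ratio of 4.23 (2.58 to 7.16), or 2.58 with every nucleus weighted equally. COX6B2, known as the testis form of subunit 6B, had 73 and 23 UMIs (0.970 and 0.487 CPM), a ratio of 0.503 (0.3001 to 0.813). Markers of pericytes, where COX4I2 was highest, were also higher in TG cardiomyocyte-like nuclei for 7 of 9 markers, by 2.23 to 6.496 times. Those 7 summed to 6.15 CPM in WT and 19.98 in TG. The other 2, KCNJ8 and ABCC9, made up most of the whole list's sum and were level (87.9 and 89.7 CPM together). Markers of other classes were higher in these nuclei too, 13 of 15 vascular endothelial, 7 of 13 fibroblast and 5 of 14 macrophage markers, with 1 fibroblast marker lower. Of all genes tested there 25.2% were higher. The part of the 7 pericyte markers, or of those of other classes, in the COX4I2 value was not tested.

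Complex V had 1 gene past the rule. ATP5F1D, the delta subunit of the catalytic head's stalk (chromosome 2, 77216430 to 77219301, listed in RefSeq as ATP5D), was at 50.7 CPM in WT and 32.0 in TG (0.631, 0.594 to 0.670). The catalytic head's alpha subunit ATP5F1A was at 179 and 157 CPM (0.876, 0.851 to 0.901), the gamma subunit ATP5F1C, which forms the turning axle, at 125 and 101.4 CPM (0.814, 0.786 to 0.843), and the membrane subunit ATP5ME at 141 and 140 CPM (0.994, 0.963 to 1.03). ATP5IF1, the inhibitor of ATP hydrolysis, was at 76.5 and 90.4 CPM (1.18, 1.14 to 1.23). The 7 other genes, for subunits of the membrane part and the outer stalk, ran from ATP5PF (77.9 and 66.9 CPM, 0.859) to ATP5PO (90.4 and 103.5 CPM, 1.14). Of the 12 genes, 3 had a log2 ratio above 0 and 9 below.

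How far these calls hold differed by gene. ATP5F1D was at 0.686 and NDUFA10 at 0.722 without the most captured gene in the total, and neither then passed the rule. With that total 4 of the 63 genes were higher, COX4I2, NDUFA4L2, COX6A1 and COX6A2 (29.0% of all genes were), and 1 was lower, COX6B2 (6.20% of all genes). With TMM factors NDUFV1 and CYC1 joined the 3 lower genes (11.8% of all genes).

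Other genes of the pathway were read from gene lists in the same nuclei. Complex II, which feeds electrons from succinate, was represented by SDHB, SDHC and SDHD, and 0 of the 3 were higher or lower (SDHB at 162 and 129 CPM, 0.793). Cytochrome c, CYCS, was at 96.1 and 93.5 CPM (0.973, 0.937 to 1.01). Of 35 measured assembly factors 2 were higher, PET100 (1.58) and TMEM70 (1.59), and 4 lower, ECSIT (0.628), SURF1 (0.610), ATPAF1 (0.654) and ATPAF2 (0.576). These are 5.71% and 11.4% of the list, beside 25.2% and 8.79% of all genes tested in these nuclei. Both ATPAF1 and ATPAF2 help to build the head of complex V and TMEM70 its membrane part, ECSIT acts on complex I, and SURF1 and PET100 on complex IV.

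Among 15 regulators of mitochondrial genes 0 were higher and 3 lower, where 25.2% and 8.79% of all genes were. The coactivator PPARGC1B was at 99.5 CPM in WT and 48.7 in TG (0.489, 0.467 to 0.513). The receptor ESRRA was at 7.82 and 4.09 CPM (0.523, 0.442 to 0.616). A related receptor, ESRRG, was at 1129 and 640 CPM (0.567, 0.559 to 0.574), and it is one of the genes that lead cluster 0, mostly of WT nuclei, and cluster 2, which both libraries shared, so its value is not independent of the clustering. PPARGC1A, the best known coactivator of the family, was at 724 and 557 CPM (0.770), NRF1 at 195.2 and 194.8 CPM (0.998), and TFAM, which packs and transcribes mitochondrial DNA, at 26.3 and 25.7 CPM.

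The subunits encoded by mitochondrial DNA went apart from each other in these nuclei. As CPM over all UMIs instead, COX1 was at 270 in WT and 1047 in TG (3.88, 3.82 to 3.94), and ND6 at 4.25 and 48.4 (11.4, 10.1 to 12.8). In the opposite direction COX2 was at 668 and 360 (0.539, 0.530 to 0.549), ND3 at 57.2 and 33.5 (0.586, 0.553 to 0.620) and CYTB at 227 and 152 (0.672, 0.654 to 0.691). Their sum was 0.256% of the UMIs of cardiomyocyte-like nuclei in WT and 0.292% in TG. ND6 is encoded on the other strand of the mitochondrial genome from the rest of these subunits. RNA of these genes is not made in the nucleus.

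The level of the 63 genes followed the mitochondrially encoded share from nucleus to nucleus. When cardiomyocyte-like nuclei of each library were put in 4 equal groups by that share, the genes together rose through 4463, 5023, 5622 and 7274 CPM in WT. The highest group was 1.63 times the lowest (1.62 to 1.64). In TG the lowest group was at 4163 and the highest at 7907 CPM (1.90, 1.88 to 1.92). Median UMIs per nucleus ran the other way, from 14848 in the lowest to 5220 in the highest group of WT, and from 12549 to 3717 in TG. Grouped by UMIs instead, the genes together went from 7805 CPM in the shallowest to 4466 in the deepest group of WT and from 8051 to 4205 CPM in TG. When the groups by share were instead taken within each of 4 depth ranges and pooled, so that the lowest and highest group had like median UMIs (9997 and 9987 in WT, 7657 and 7646 in TG), the highest was 1.28 times the lowest in WT (1.27 to 1.296) and 1.39 times in TG (1.37 to 1.402). This regrouping was chosen after seeing the data.

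The complexes had different slopes. In the highest group complex IV was 1.82 times its level in the lowest group of WT and 2.25 times in TG, and complex V 1.81 and 2.17 times. Complex III stood at 1.57 and 1.75, and complex I was flattest at 1.42 and 1.55. Reference lists framed these values: cytosolic ribosomal protein genes were at 2.56 and 2.64, heart muscle transcripts at 1.62 and 2.04, and large intron-rich cardiomyocyte genes such as RYR2 and CTNNA3 at 0.908 and 0.915. CYCS lay with complexes IV and V (1.83 and 2.34), while complex II (1.08 and 1.13), the assembly factors (1.05 and 1.07) and the regulators (0.977 and 0.999) were nearly flat.

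Single genes spread further than the complexes. Over the 59 genes with at least 100 UMIs in both libraries the median ratio of highest to lowest group was 1.69 in WT, with a range of 1.02 to 2.64, and 2.15 in TG, with a range of 0.918 to 3.51. In both libraries 4 genes stayed below 1.2, NDUFS4 (1.03 in WT, 0.918 in TG), NDUFS1 (1.09, 1.06), UQCRC2 (1.16, 1.11) and COX7A2L (1.02, 1.07). COX7A2L encodes a factor that joins complexes III and IV into supercomplexes. NDUFB7 (2.64, 3.11), NDUFV1 (2.12, 3.51), COX4I1 (2.37, 3.05) and COX7A1 (2.33, 3.101) were at the steep end. The order of the 59 genes was alike in the libraries (Spearman's rho of 0.897 across genes, which are not independent replicates).

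**Figure D2:**
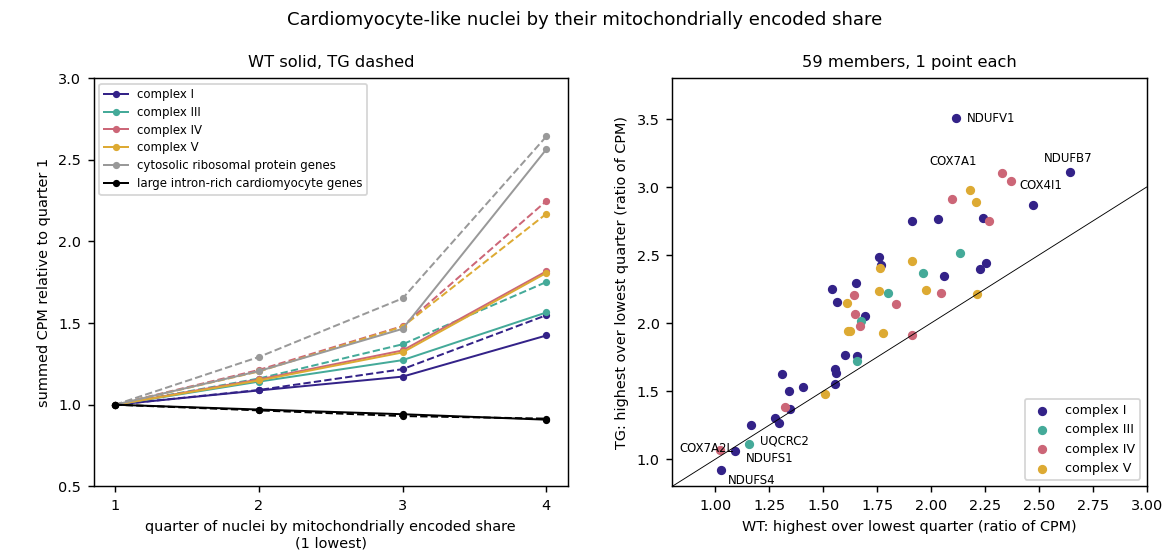
Left, summed CPM in 4 groups of cardiomyocyte-like nuclei ordered by mitochondrially encoded share, relative to the lowest group (WT solid, TG dashed). Right, each of 59 genes as 1 point, its ratio of highest to lowest group in WT (x axis) and in TG (y axis); NDUFS4, NDUFS1, UQCRC2 and COX7A2L lie near 1 on both axes.

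Because the shares differed between the libraries, the genotypes were also compared within 4 ranges of the share set on both libraries together. The share is made up differently in the libraries, with COX1 at 270 in WT and 1047 in TG and COX2 at 668 and 360 (CPM over all UMIs). A given share is thus not a like measure in both. The ranges were also not matched for UMIs per nucleus (medians of 9997 in WT and 7642 in TG cardiomyocyte-like nuclei). All 63 genes then stood at TG to WT ratios of 0.868, 0.846, 0.918 and 0.981 from the lowest to the highest range. Complex III was at 0.773, 0.738, 0.816 and 0.854, below 1 in each range. Complex I was at 0.908, 0.876, 0.923 and 0.956, and complex V at 0.813, 0.784, 0.893 and 0.939. Complex IV was below 1 in 3 of the ranges (0.898, 0.903 and 0.976) and above 1 only in the highest, at 1.09. The reference lists were below 1 in the same ranges, heart muscle transcripts at 0.679, 0.694, 0.764 and 0.816, cytosolic ribosomal protein genes at 0.785, 0.775, 0.839 and 0.774, and large intron-rich cardiomyocyte genes between 0.7805 and 0.784. Within cluster 2, which both libraries shared, the 63 genes were at 5583 CPM in WT and 6803 in TG, where TG nuclei had fewer UMIs (medians of 7868 and 3839) and a higher mitochondrially encoded share (0.233% and 0.501%).

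Outside cardiomyocytes the libraries parted. In WT each of the other 8 classes held less of these genes than cardiomyocyte-like nuclei did, and in TG each held more. In fibroblast-like nuclei the 63 genes were at 3232 CPM in WT and 7393 in TG, which is 61.2% and 144% of the cardiomyocyte level. The WT value was 40.7% once the summed profile of all kept nuclei, scaled to the class's heart muscle transcripts, was subtracted. That profile includes cardiomyocyte-like nuclei and the class itself, was not taken from empty droplets, and could not be fitted in TG. Smooth muscle-like nuclei were at 52.1% and 131%, macrophage-like at 65.0% and 122%, lymphatic endothelial-like at 65.9% and 134%, and Schwann or neural-like at 73.4% and 146%. Vascular endothelial-like nuclei were at 80.3% and 135%, T or NK lymphocyte-like at 82.9% and 121%, and pericyte-like at 87.8% and 115%. Over the alternatives tried, that subtraction among them, the lowest WT value was 2.55% in smooth muscle-like nuclei. It was 33.7% in macrophage-like, 36.8% in Schwann or neural-like and 47.3% in lymphatic endothelial-like nuclei. T or NK lymphocyte-like nuclei went down to 53.4%, pericyte-like to 57.0% and vascular endothelial-like to 59.6%. Among the alternatives tried, one value crossed the cardiomyocyte level, that of TG T or NK lymphocyte-like nuclei at 99.9% when nuclei were limited to 1% mitochondrially encoded UMIs.

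Heart muscle transcripts, 15 genes such as MYL2 and MYH7 of the sarcomere and CKM of energy transfer, followed the same division. Their sum in fibroblast-like nuclei was 28.3% of the cardiomyocyte level in WT and 120% in TG, and over the other 7 classes it ran from 28.0% to 61.0% in WT and from 104% to 130% in TG. Large intron-rich cardiomyocyte genes were at 2.97% and 7.20% in fibroblast-like nuclei, and over all 8 classes at most at 45.9% in WT and 62.8% in TG. Of 11 cardiomyocyte markers all were higher in TG fibroblast-like nuclei (sums of 3202 and 10258 CPM), 3 to 9 were higher in each of the other 7 classes, 4 were lower in smooth muscle-like nuclei, and none was at 0. Thinned to 1000 UMIs per nucleus, the 63 genes gave a mean of 3.39 UMIs in WT and 7.72 in TG fibroblast-like nuclei, and 5.98 and 5.96 in cardiomyocyte-like nuclei. The share of a class's RNA that, drawn from the library-wide profile, would account for its heart muscle transcripts was 36.1% to 78.6% over the 8 classes in WT. In TG it was 103% to 128%, so that the level in each class was above that of the whole library and the profile could not be subtracted.

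**Figure D3:**
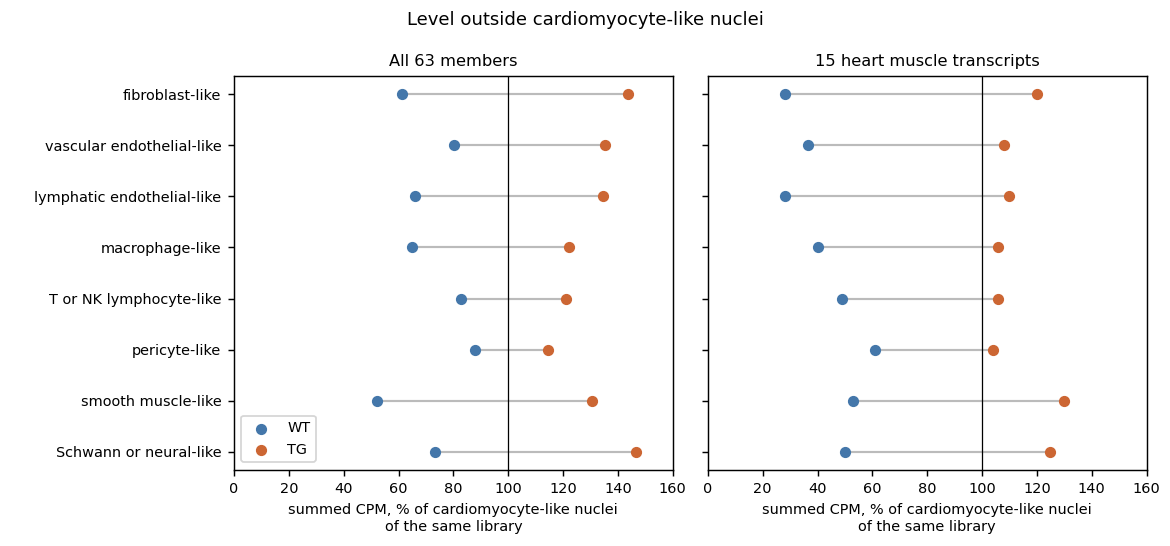
Summed level in 8 classes as a percentage of the level in cardiomyocyte-like nuclei of the same library (WT blue, TG orange), for the 63 genes (left) and for 15 heart muscle transcripts (right); the line at 100 is the cardiomyocyte level. All WT points lie below 100 and all TG points above it in both panels.

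Gene by gene, 52 of 61 measured genes were higher in TG in fibroblast-like nuclei (17.3% of all genes tested were) and 0 were lower (9.15% of all genes). The counts of higher genes were 32 of 61 in vascular endothelial-like nuclei (11.6% of all genes), 43 of 59 in lymphatic endothelial-like (11.6%), 42 of 59 in macrophage-like (16.0%), 49 of 60 in smooth muscle-like (16.3%) and 37 of 59 in Schwann or neural-like nuclei (11.3%), with 0 lower in these 5 classes (8.36%, 7.97%, 8.72%, 10.5% and 9.36% of all genes). T or NK lymphocyte-like nuclei had 24 higher and 1 lower of 59 (15.8% and 17.4% of all genes). Pericyte-like nuclei had 13 higher and 3 lower of 61 (12.0% and 15.1%), and this count moved with the clustering, to 20 higher with the 63 genes among those used to cluster (12.9% of all genes) and to 40 at Leiden resolution 0.5 (15.0%). At that resolution the pericyte-like cluster was led by MYH11 and also by ACTA2, genes of smooth muscle, and no smooth muscle-like cluster stood apart, so it is not the same set of nuclei. The vascular endothelial-like count was 17 at that resolution (13.01% of all genes), and the T or NK lymphocyte-like count 38 with the libraries clustered separately (17.5%).

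Complexes IV and V had higher ratios than complex I in all 8 classes, with overlapping intervals for both in T or NK lymphocyte-like nuclei and for complex V in pericyte-like nuclei. In fibroblast-like nuclei complex I was at 1.92 (1.87 to 1.96), complex III at 1.98 (1.89 to 2.07), complex V at 2.496 (2.43 to 2.57) and complex IV at 2.66 (2.60 to 2.72). In smooth muscle-like nuclei these were 1.97, 1.84, 2.88 and 2.95. Heart muscle transcripts were at 3.38 and 1.96 in the same nuclei. Cytosolic ribosomal protein genes were at 1.25 and 1.58, and below 1 in 5 of the 8 classes, among them vascular endothelial-like nuclei (0.692) and those like T or NK lymphocytes (0.610). Complex II (1.39), the assembly factors (1.12) and the regulators (0.970) showed smaller ratios in fibroblast-like nuclei, and CYCS a larger one (3.25).

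**Figure D4:**
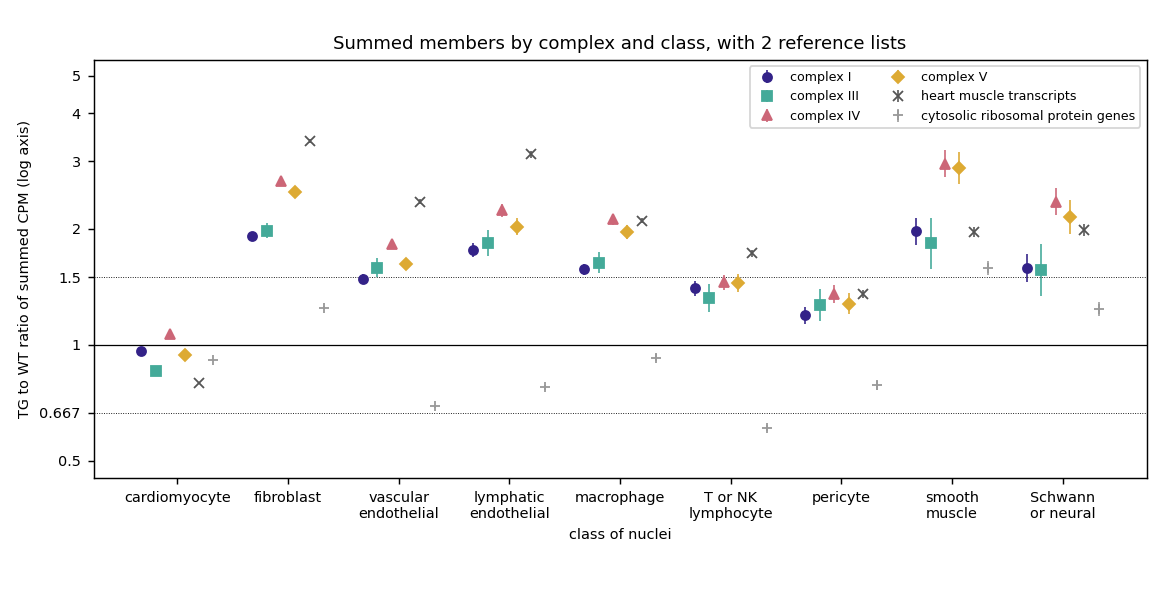
Ratio of TG to WT for the summed genes of each complex in 9 classes of nuclei, with heart muscle transcripts and cytosolic ribosomal protein genes as reference, on a log axis; bars are 95% counting intervals and dotted lines mark 1.5 in either direction. Complexes lie near 1 in cardiomyocyte-like nuclei and above 1 in the other 8 classes.

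The same few genes stood out in several classes. COX6A2 had the highest ratio in fibroblast-like nuclei (76.8 CPM in WT and 285 in TG, 3.71, 3.42 to 4.02), vascular endothelial-like (93.3 and 254, 2.72), lymphatic endothelial-like nuclei (63.4 and 260, 4.10), and also in those like T or NK lymphocytes (84.9 and 187, 2.20). It encodes the heart and muscle form of subunit 6A. NDUFA11, an accessory subunit of complex I, led in macrophage-like (13.9 and 39.9 CPM, 2.87) and pericyte-like nuclei (18.6 and 40.8, 2.20), ATP5MC1, a ring subunit of complex V, in smooth muscle-like (36.3 and 171, 4.70) and NDUFA1 in Schwann or neural-like nuclei (16.3 and 70.3, 4.301, 2.22 to 8.86).

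COX7A2L was at the other end. It had the lowest ratio in fibroblast-like (38.0 and 38.9 CPM, 1.02, 0.869 to 1.202), macrophage-like (47.0 and 38.6, 0.822, 0.648 to 1.04), Schwann or neural-like (49.0 and 30.1, 0.614, 0.315 to 1.14) and T or NK lymphocyte-like nuclei, where it was counted as lower (60.4 and 30.0, 0.497, 0.356 to 0.683). The lowest were ATP5F1D in vascular endothelial-like (69.5 and 64.9 CPM, 0.934), COX6A1 in lymphatic endothelial-like (50.0 and 46.8, 0.936) and NDUFS1 in smooth muscle-like nuclei (69.6 and 66.0, 0.948). The 4 genes that stayed below 1.2 along the mitochondrially encoded share in cardiomyocyte-like nuclei were all among the 9 not counted as higher in fibroblast-like nuclei. Of all genes tested in fibroblast-like nuclei 17.3% were counted as higher. There NDUFS4 was at 146 and 202 CPM (1.38), UQCRC2 at 84.6 and 99.9 (1.18) and NDUFS1 at 49.4 and 73.9 (1.497, just under the cut-off of 1.5). The share of all genes with both traits is not given here, and a link between the traits was not tested.

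At the median, levels of a gene lay closer together in TG than in WT across the classes named next. Some genes went the other way, NDUFAB1, NDUFV1 and UQCRC2 among them, and the value over all genes is not given here. Over fibroblast-, vascular endothelial-, lymphatic endothelial-, macrophage- and T or NK lymphocyte-like nuclei, the highest level of a gene was at the median 1.54 times the lowest in WT and 1.38 times in TG (59 genes). Among these 59 the widest spread was that of COX6A1 in WT (3.29) and of COX8A in TG (2.01). COX4I2 and NDUFA4L2, with few UMIs in some of these classes, are not among the 59. COX4I2 spread 26.1 times in WT and 10.8 times in TG, and NDUFA4L2 3.26 and 2.32 times. In all 8 classes the same 9 genes were higher in TG, ATP5PO, COX5A, COX6A2, COX7C, NDUFA1, NDUFA4, NDUFB3, UQCR10 and UQCRQ. The share of all genes higher in all 8 classes is not given here, so this count has no background to be read against.

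Some complex IV subunits come in pairs of genes, 1 used in heart and skeletal muscle and 1 used widely, and the share within a pair does not depend on the scaling. In cardiomyocyte-like nuclei COX6A2 made up 91.6% of the UMIs of COX6A2 and COX6A1 in both libraries (intervals of 90.9 to 92.2 in WT and 91.0 to 92.3 in TG). COX7A1 made up 72.1% of COX7A1 and COX7A2 in WT (71.3 to 72.9) and 75.4% in TG (74.5 to 76.3). COX7A1 lies on chromosome 6 (45519225 to 45520721) and COX7A2 on chromosome 1 (90696746 to 90703407).

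Muscle isoforms were also found outside cardiomyocytes. The COX6A2 share was 67.9% in WT and 87.8% in TG fibroblast-like nuclei, 59.7% and 81.2% in vascular endothelial-like, 55.9% and 84.8% in lymphatic endothelial-like, 80.5% and 87.8% in macrophage-like, 69.9% and 85.3% in T or NK lymphocyte-like and 70.8% and 88.1% in pericyte-like nuclei. In smooth muscle-like nuclei (87.0% and 87.8%) the intervals overlapped, as they did in the Schwann or neural-like class (86.2% and 87.2%). The COX7A1 share went from 63.7% to 76.3% in fibroblast-like and from 58.95% to 72.3% in vascular endothelial-like nuclei, and was 72.3% and 72.6% in pericyte-like nuclei. Heart muscle transcripts had TG to WT ratios of 1.96 in smooth muscle-like, 1.98 in Schwann or neural-like and 1.36 in pericyte-like nuclei, where the COX6A2 or COX7A1 shares had overlapping intervals.

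**Figure D5:**
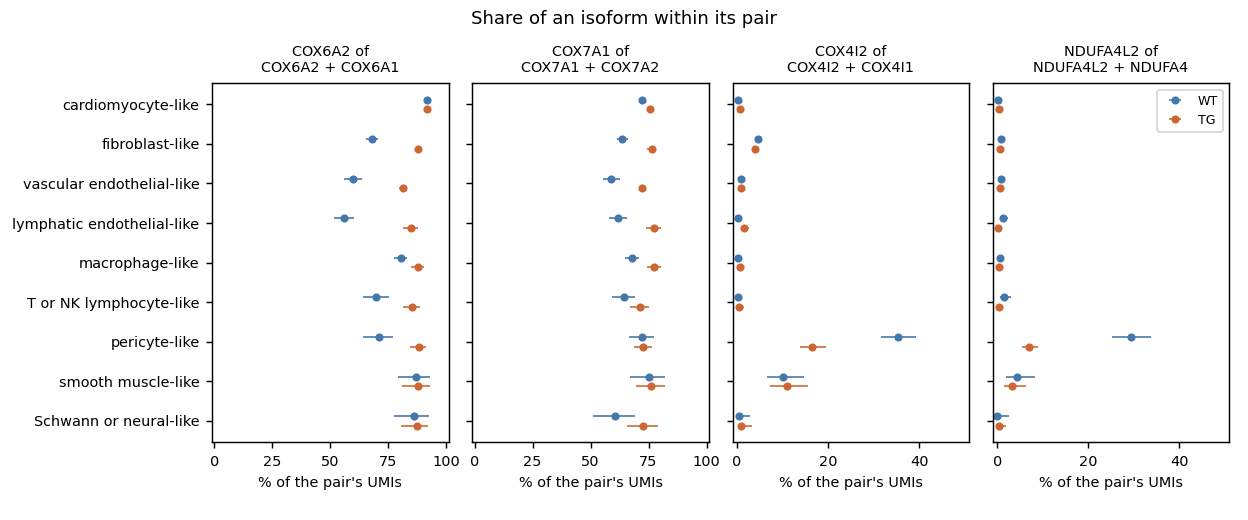
Share of the first gene of a pair among the UMIs of both, by class, in WT (blue) and TG (orange), with 95% Clopper-Pearson intervals; the x axis differs between panels. COX4I2 and NDUFA4L2 stand out in pericyte-like nuclei, where the WT shares are 35.4% and 29.5%.

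A pair of alternative subunits reached their highest levels in pericytes, the contractile cells that wrap capillaries. COX4I2 replaces COX4I1 and is known from lung and from hypoxic cells, and NDUFA4L2 is a relative of NDUFA4 that is induced by hypoxia-inducible factor. COX4I2 was at 136 CPM in WT pericyte-like nuclei (213 UMIs), against 17.4 in smooth muscle-like, 10.0 in fibroblast-like and 0.306 in cardiomyocyte-like nuclei. NDUFA4L2 (chromosome 5, 22540482 to 22548418) was at 85.8 CPM (134 UMIs), against 5.80 in smooth muscle-like and 0.731 in cardiomyocyte-like nuclei. In WT pericyte-like nuclei COX4I2 thus made up 35.4% of COX4I2 and COX4I1 (31.6 to 39.4), and NDUFA4L2 29.5% of NDUFA4L2 and NDUFA4 (25.3 to 33.9). After subtraction of the library-wide profile of all kept nuclei these WT shares were 70.0% and 93.2%. After thinning to 1000 UMIs per nucleus the NDUFA4L2 share was 49.5%. COX4I2 was left out when the pericyte cluster was named, and neither gene was used to form it.

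Both genes were lower in TG pericyte-like nuclei. COX4I2 was at 56.6 CPM (115 UMIs), a ratio of 0.415 (0.328 to 0.523), which was 0.706 and not counted as lower in the wider cluster at Leiden resolution 0.5, and NDUFA4L2 at 29.5 CPM (60 UMIs), a ratio of 0.344 (0.249 to 0.470). Their shares within the pairs were 16.5% (13.8 to 19.5) and 6.98% (5.37 to 8.90). COX4I2 had a UMI in 41.0% of WT and 24.4% of TG nuclei (medians of 2862 and 3107 UMIs), and, thinned to 1000 UMIs per nucleus, in 17.3% of 342 and 10.2% of 381 nuclei. NDUFA4L2 had a UMI in 27.5% and 15.0%, and 14.6% and 5.77% after thinning. In thinned cardiomyocyte-like nuclei, which should lack both, the highest share of either was 0.167%, and their unthinned medians were 9997 and 7642 UMIs. All 9 pericyte markers used for the name were lower as well, with ratios from 0.349 (RGS5) to 0.610 (HIGD1B), a median of 0.498 and sums of 7020 CPM in WT and 2968 in TG. Cardiomyocyte markers in these nuclei summed to 18020 CPM in WT and 26903 in TG. The ratio of COX4I2 lies inside the range of the markers and that of NDUFA4L2 just under it, and a lower level per pericyte cannot be told apart from a smaller part of pericyte RNA in these nuclei.

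In 2 other classes COX4I2 was counted as higher in TG. It was at 10.0 CPM in WT and 18.1 in TG fibroblast-like nuclei (1.80, 1.38 to 2.36) and in smooth muscle-like nuclei at 17.4 and 47.7 CPM (2.74, 1.51 to 4.98, on 24 and 26 UMIs). Its share of the pair there was 4.67% and 4.04%, and 10.1% and 11.0%. Pericyte markers were higher too, 6 of 9 in fibroblast-like nuclei (sums of 195 and 304 CPM), where 17.3% of all genes were. In smooth muscle-like nuclei 5 of 9 were higher and 1 lower (1031 and 1350 CPM), against 16.3% and 10.5% of all genes. The part of these markers in the COX4I2 values was not tested. COX6A1, the widely used partner of COX6A2, was lower in TG pericyte-like nuclei (37.8 and 22.6 CPM, 0.599, 0.398 to 0.896). In WT 78.6% of the pericyte-like RNA would have to come from the library-wide profile to account for all its heart muscle transcripts. Whether it did was not tested.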

How the data were processed

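Nuclei from frozen left ventricle were isolated with iodixanol, and their libraries made with the 10x Genomics 3' v3.1 kit, per the labels' protocols. The deposited matrices hold raw UMI counts per gene and barcode. Cell Ranger is named at version 5.0.0 per the file headers and at 3.1.0 per the submitters' processing notes, which also name Seurat 3.1.1 and the pig genome Sscrofa11.1. The TG matrix holds exactly 15000 barcodes and the WT matrix 18251.

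Barcodes with at least 500 genes and at most 5% mitochondrially encoded UMIs were kept. Nuclei of both libraries were clustered together (scanpy 1.11.5, 2000 variable genes without the 63 genes, 30 components, 15 neighbours, Leiden at resolution 1, no batch correction). Clusters were named where at least 60% of a class's markers were raised, by thresholds set after seeing the clusters, so names and class sizes are rebuilt here. Scrublet called 6.95% of WT and 0% of TG nuclei, so its calls were not used and doublets were not removed except as clusters of mixed markers.

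Counts were summed per class and library and divided by nuclear-encoded UMIs. Level intervals are exact Poisson, ratio intervals conditional binomial, share intervals Clopper-Pearson. No test between genotypes was possible with 1 library each. The call rule was tried on simulated counts that varied by counting error only. That trial cannot show how often the rule calls genes between libraries without replicates. The members and gene lists were chosen with earlier results of these data known. Named genes are those past the rule in cardiomyocyte-like nuclei, the 3 with the most UMIs per complex, the highest and lowest ratio per class, and isoform pairs; other genes were picked after their values were seen. Of the 63 genes 50 had RefSeq coordinates (Sscrofa11.1), 12 of them through older symbols, under 80%, so gene length was not examined.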

Additional observations from a re-analysis of the deposited data

Results flagged for a closer look

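In the data 4 of the genes described here had calls of opposite direction in different classes of nuclei. The share of all genes with such opposite calls is not given here, so this count has no background to be read against. The differences between classes were not tested, since each genotype has 1 library. ATP5F1D, the delta subunit of complex V, had TG to WT ratios of 0.631 in cardiomyocyte-like, 1.55 in fibroblast-like and 1.53 in macrophage-like nuclei. COX4I2, the alternative subunit 4 of complex IV, was at 4.23 in cardiomyocyte-like, 1.80 in fibroblast-like and 2.74 in smooth muscle-like nuclei, against 0.415 in pericyte-like nuclei. Of 9 pericyte markers 7, 6 and 5 were higher in those classes in that order (25.2%, 17.3% and 16.3% of all genes). In smooth muscle-like nuclei 1 marker was lower. All 9 were lower in pericyte-like nuclei (15.1% of all genes). COX6A1, the widely used subunit 6A, was at 1.56 in macrophage-like, 2.89 in smooth muscle-like and 2.21 in Schwann or neural-like nuclei, against 0.599 in pericyte-like nuclei. NDUFA4L2 was at 2.25 in fibroblast-like nuclei, on 14 UMIs in WT and 15 in TG, and at 0.344 in pericyte-like nuclei.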

How the results depend on the processing

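No paired analysis was possible because each genotype has 1 library and the labels give no replicate numbers. Of 212 alternative values for the main results 136 stayed within the limits set for them and 76 moved. The way these values were labelled could not score a reversal for the main results, so none is counted. Some ratios of complexes I, IV and V changed side of 1. TG to WT ratios in cardiomyocyte-like nuclei follow, in the order complex I, III, IV and V. They were 0.9004, 0.798, 0.997 and 0.881 with TMM factors, 1.05, 0.928, 1.16 and 1.03 without the most captured gene in the total, and 1.06, 0.943, 1.18 and 1.04 over protein-coding genes with a symbol. With nuclei weighted equally they were 0.946, 0.837, 1.05 and 0.926, as medians of gene ratios 0.925, 0.795, 1.11 and 0.922, and thinned to 1000 UMIs 0.975, 0.872, 1.1004 and 0.999. With at least 2000 UMIs per nucleus complexes IV and V were at 1.08 and 0.953, and with NDUFA4 in complex I complexes I and IV were at 0.987 and 1.05. The count of higher genes in these nuclei was 2 with equal weights, 0 with a floor of 100 UMIs, 0 after thinning, and 4 both without the most captured gene and over protein-coding genes (25.6%, 20.6%, 14.5%, 29.0% and 29.7% of all genes under the same settings). The count of lower genes was 5 with TMM factors, 0 at a fold of 2, and 1 with either of those totals (11.8%, 3.33%, 6.20% and 5.77% of all genes).

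Counts of higher genes in other classes also moved by over 1.5 times, and are given with the share of all genes called under the same setting. At a fold of 2 they were 10 of 61 in vascular endothelial-like (7.07%), 25 of 59 in lymphatic endothelial-like (7.14%), 18 of 59 in macrophage-like (10.3%), 5 of 59 in T or NK lymphocyte-like (9.86%) and 1 of 61 in pericyte-like nuclei (7.76%). After thinning they were 25 of 40 in smooth muscle-like (11.2%), 15 of 36 in Schwann or neural-like (8.78%) and 22 of 61 in pericyte-like nuclei (12.4%), and with a floor of 100 UMIs 24 of 27 in smooth muscle-like (14.6%) and 21 of 24 in Schwann or neural-like nuclei (10.5%). Equal weights gave 44 of 59 in T or NK lymphocyte-like (25.7%) and 29 of 61 in pericyte-like nuclei (24.1%), and mixed clusters 16 of 61 in vascular endothelial-like nuclei (12.9%).

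The fibroblast-like level as a percentage of the cardiomyocyte level, in WT and TG, was 66.1 and 141 at Leiden resolution 0.5, 55.3 and 129 with equal weights, 60.0 and 134 without the most captured gene, 66.9 and 127 with mixed clusters included, 56.7 and 129.7 after thinning, 52.9 and 121 at no more than 1% mitochondrially encoded UMIs, and 60.5 and 135 over protein-coding genes. With the library-wide profile of all kept nuclei subtracted it was 40.7 in WT. The NDUFA4L2 and COX4I2 shares in WT pericyte-like nuclei were then 93.2% and 70.0%. That subtraction could not be fitted in TG. The highest to lowest group ratio by mitochondrially encoded share, in WT and TG, was 1.97 and 1.99 with equal weights, 1.78 and 1.99 after thinning, and 1.39 and 1.68 at no more than 1%. Taken within depth ranges, which was added after seeing the data, it was 1.28 and 1.39. It was 1.53 in WT with at least 2000 UMIs, and in TG 1.86 without the most captured gene and 1.88 over protein-coding genes. The COX4I2 share was 28.4% in WT at Leiden resolution 0.5, 41.8% in WT with equal weights and 21.0% in TG after thinning. For NDUFA4L2 in WT these shares were 24.6%, 43.7% and 49.5% after thinning. In cardiomyocyte-like nuclei the COX7A1 share was 75.2% and 77.6% with equal weights and 73.3% and 76.9% after thinning, and the COX6A2 share in TG 92.5% with equal weights. ATP5F1D and NDUFA10 lost their calls with both totals and after thinning, and NDUFA10 also with equal weights and at 2000 UMIs or more. COX4I2 in pericyte-like nuclei was at 0.706 at Leiden resolution 0.5, where smooth muscle genes lead the same cluster. Clustering each library on its own gave no pericyte-like value. The causes of these shifts were not tested. Depth limits single-gene ratios in the smaller classes, where NDUFS8 and COX6B2 fell under the floor.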
